A study of Mus musculus with 12 samples.

Results

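The genes described here are 10 enzymes of serine synthesis, the folate one-carbon cycle and the methionine cycle, measured by RNA sequencing of mouse liver. They were chosen by symbol, as the enzymes that lead from glycolytic carbon to serine, from serine to folate-bound one-carbon units, and around the methionine cycle. All 10 were found among the 48795 genes of the table, and all 10 were among the 13812 genes with enough counts to be tested. Phgdh, Psat1 and Psph make serine, Shmt1, Shmt2 and Mthfd1 handle folate one-carbon units, and Mat1a, Gnmt, Bhmt and Ahcy turn the methionine cycle.

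The livers came from 12 female mice, 4 months old, kept on normal chow; the study's methods name littermates, but no label gives a litter. They were labelled Nts+/+ or Nts-/-, the latter lacking neurotensin, a gut peptide hormone, in the whole body, and were bred from Nts+/- parents. Each genotype label was split into mice fed ad libitum and mice fasted for 22 h, with 3 mice in each of the 4 groups. One library was sequenced per mouse, with 21999656 to 45273081 estimated counts per library. Nts itself had 0 counts in all 6 libraries labelled Nts+/+ and 4 to 46 counts in the 6 libraries labelled Nts-/-. This direction is the reverse of the labels, and the reason for it was not tested. The genotype labels are therefore used here only as names, and any direction between them depends on them. The fed and fasted labels do not rest on Nts: Srebf1 and Fasn, genes of the fed liver, were lower, and Cpt1a and Fgf21, genes of the fasted liver, were higher in the fasted mice of both genotype labels.

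Serine is made in the cytosol from a glycolytic intermediate and passes a one-carbon unit to tetrahydrofolate as it becomes glycine. The methionine cycle uses methionine to make S-adenosylmethionine, the cell's methyl donor, and returns the homocysteine left behind to methionine. Liver is a main site of the body's methionine turnover, and it has a liver form of methionine adenosyltransferase (Mat1a), a betaine route back to methionine (Bhmt) and an abundant methyl sink (Gnmt). Liver is also a tissue in which the serine synthesis enzymes are low when dietary protein is ample.

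Promoter sequence is shown for the 3 genes that passed the fasting test over both genotype labels and had an entry in the RefSeq promoter table: Ahcy and Psat1, which rose, and Psph, which fell. Mat1a also passed and rose but had no entry, so the promoter counts and motif search below do not cover it. Each run covers 250 bases before to 50 bases after the annotated start, read 5′ to 3′ on the gene's strand in GRCm38.p6, with CpG dinucleotides in capitals. The windows lie at chr2:155074448-155074747 for Ahcy, chr19:15925010-15925309 for Psat1 and chr5:129787204-129787503 for Psph, all on the minus strand. Psat1 had another window, at chr19:15924573-15924872, which is not shown. Both Psat1 windows lie inside the gene span used for the counts, which on this strand starts at 15947337. The RefSeq start of Psat1 thus differs from the start of that span. The same holds for Psph, whose span starts at 129787449, among the bases before the RefSeq start. The window of Shmt1, not shown, also lies inside its gene span.
Ahcy: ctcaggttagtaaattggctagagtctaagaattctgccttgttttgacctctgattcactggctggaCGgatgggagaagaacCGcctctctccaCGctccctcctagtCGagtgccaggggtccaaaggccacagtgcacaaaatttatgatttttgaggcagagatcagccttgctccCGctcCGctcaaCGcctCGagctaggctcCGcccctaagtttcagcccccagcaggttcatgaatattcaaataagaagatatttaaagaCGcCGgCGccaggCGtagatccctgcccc
Psat1: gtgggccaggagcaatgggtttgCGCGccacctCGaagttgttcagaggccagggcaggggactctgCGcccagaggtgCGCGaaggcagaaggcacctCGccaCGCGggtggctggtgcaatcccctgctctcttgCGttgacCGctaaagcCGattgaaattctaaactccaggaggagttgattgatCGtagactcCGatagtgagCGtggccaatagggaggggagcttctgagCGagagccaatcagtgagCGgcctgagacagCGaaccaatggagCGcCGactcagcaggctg
Psph: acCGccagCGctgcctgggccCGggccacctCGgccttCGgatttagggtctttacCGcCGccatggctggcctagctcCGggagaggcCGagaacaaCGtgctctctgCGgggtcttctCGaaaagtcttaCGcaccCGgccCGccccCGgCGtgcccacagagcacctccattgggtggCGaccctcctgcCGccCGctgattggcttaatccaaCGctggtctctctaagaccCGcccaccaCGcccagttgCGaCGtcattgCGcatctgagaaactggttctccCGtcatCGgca
The Ahcy window held 13 CpG dinucleotides, the Psat1 window 20 and the Psph window 28, beside a median of 7 over the 32851 windows of the table. A total of 9 members had at least 1 window, 10 windows in all, and CpG counts in these ran from 8 in Bhmt to 30 in the other Psat1 window. The windows were searched on both strands for 4 motifs: TGATGNAA, the C/EBP-ATF composite element bound by ATF4, CACGTG, the E-box, TGACGTCA, the cyclic AMP response element, and TGTTTAC, a FoxO site. None was found in any of the 10 windows. Over all windows of the same length the motifs occurred in 3.97%, 7.15%, 1.79% and 3.65%, so an absence is the usual state for each, and it says only that these letters are not in these windows.

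The methionine cycle genes were the most abundant of the 10, the folate enzymes came next and the serine synthesis enzymes were the scarcest. Levels between genes are compared as TMM-normalized library shares (CPM, a count scaled to the library's total) divided by the length of the canonical transcript in kilobases. In fed Nts+/+ livers Gnmt stood at 1240 ± 119 CPM per kb (SD, n = 3), Mat1a at 843 ± 174, Ahcy at 838 ± 98.0 and Bhmt at 821 ± 525. The folate enzymes were about an order of magnitude lower, with Shmt1 at 79.5 ± 2.34, Shmt2 at 76.3 ± 5.25 and Mthfd1 at 71.0 ± 3.87 CPM per kb. Psph stood at 2.29 ± 0.384, Psat1 at 0.199 ± 0.0287 and Phgdh at 0.173 ± 0.0933 CPM per kb. Within the methionine cycle the spreads of Mat1a, Ahcy and Bhmt overlapped, and the means of the 3 folate enzymes lay close to each other. This order of the 3 sets of genes held for the means of all 4 groups. Inside the methionine cycle the order of means varied between groups, and it was not separated from the spread of Bhmt, which stood at 1372 ± 978 CPM per kb beside 1355 ± 263 for Gnmt in fed Nts-/- livers and at 3254 ± 2639 beside 2686 ± 1046 for Mat1a in fasted Nts+/+ livers.

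**Figure D1:**
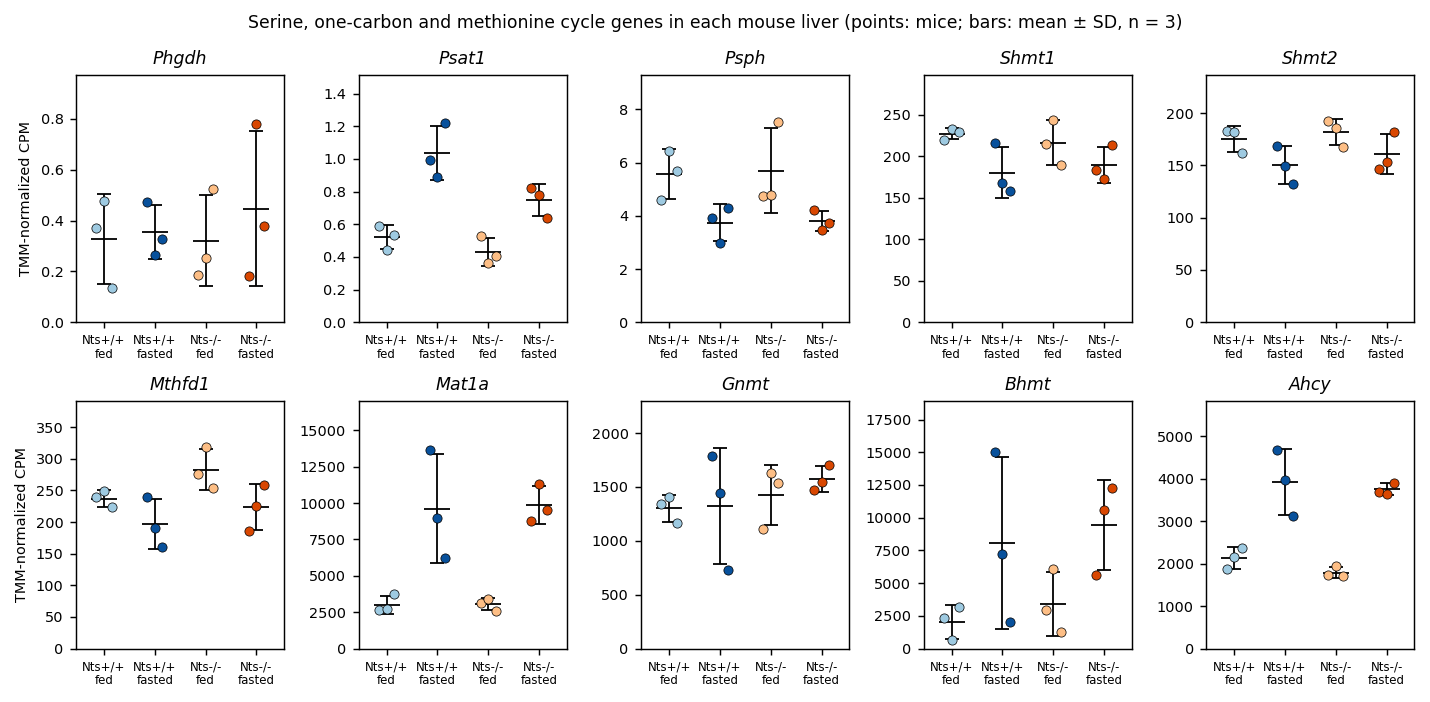
TMM-normalized CPM (y axis, linear from 0, own scale per gene) of the 10 genes in each of the 4 groups as labelled (x axis). Points are single mice and bars the mean ± SD of 3 mice. Mat1a and Ahcy are higher in every fasted mouse than in any fed mouse, while the fed and fasted points of Gnmt and Bhmt overlap.

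The question in both genotype labels was what a 22 h fast did to each gene. The fast was followed by higher Mat1a and Ahcy RNA under both labels, by about 3.2-fold and 2-fold, and by no detectable change in Gnmt. In libraries labelled Nts+/+, 3 of the 10 genes passed an adjusted p of 0.05 and all were higher (Mat1a, Ahcy and Psat1), where 18.1% of all tested genes passed, 8.91% higher and 9.19% lower. In libraries labelled Nts-/-, 2 of 10 passed, both higher (Mat1a and Ahcy), beside 16.8% of all genes, 7.7% higher and 9.14% lower. Averaged over both labels, 3 were higher and 1 lower (Psph), beside 32.8% of all genes, 16% higher and 16.8% lower. The share of the 10 genes that passed was thus not far from that of the table, and the median log2 fold change over the 10 was 0.04 in Nts+/+ and 0.33 in Nts-/- libraries, beside -0.0032 and -0.011 over all genes tested. These medians rested on single mice: the Nts+/+ value was -0.20 without mouse 265 and the Nts-/- value 0.042 without mouse 290. Liver is a mixture, and in bulk RNA fewer cells of a type and less RNA per cell cannot be told apart. The summed level of 6 hepatocyte markers, all of them detected, was 107300 to 136500 CPM in fed and 117400 to 140200 CPM in fasted livers. Of these 6, 2 were called higher and 1 lower in the averaged fast. Of the other liver cell types, 5 cholangiocyte markers summed to 33.4 to 49.7 CPM in fed and 13.7 to 29.6 CPM in fasted livers. Only 4 of these 5 were tested, and 1 was called lower and 0 higher in the averaged fast. The sums of 5 sinusoidal endothelial markers overlapped, at 126 to 187 CPM fed and 107 to 131 CPM fasted, with 1 of the 5 called higher and 3 lower in the averaged fast. Sums of 5 stellate cell markers overlapped as well (180 to 256 CPM fed, 179 to 204 CPM fasted). Of these 5, 0 were called higher and 3 lower in the averaged fast. Sums of 6 lymphocyte markers (4.34 to 7.49 and 4.31 to 7.71 CPM) and 4 erythroid markers (160 to 394 and 150 to 393 CPM) also overlapped. In the averaged fast 0 of the 6 lymphocyte markers were called, and of 3 tested erythroid markers 1 was lower. Kupffer cell markers are given with Folr2. The TMM factors were 0.996 to 1.10 in fed and 0.915 to 1.02 in fasted libraries. The part of these measures in the results was not tested.

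Mat1a encodes the catalytic subunit of the liver's methionine adenosyltransferase, which makes S-adenosylmethionine. The gene (ENSMUSG00000037798) lies at chr14:41105381-41124412 in GRCm38, the build of the table. In libraries labelled Nts+/+ it stood at 2617, 2698 and 3731 CPM in the fed mice and at 13628, 8963 and 6230 CPM in the fasted mice. In libraries labelled Nts-/- it stood at 3143, 3438 and 2590 CPM fed and at 8742, 11338 and 9507 CPM fasted. The lowest fasted liver lay well above the highest fed one, so the 6 fed and 6 fasted mice did not overlap. The log2 fold change was 1.67 (SE 0.25, adjusted p = 0.000833) in Nts+/+ and 1.69 (SE 0.25, adjusted p = 0.000661) in Nts-/- libraries, and the averaged fold was 3.21. It was the most significant of the 10 genes in all 3 fasting comparisons.

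Ahcy hydrolyses S-adenosylhomocysteine, the by-product of methylation, to homocysteine and adenosine. The gene (ENSMUSG00000027597) lies at chr2:155059310-155074497. It stood at 1871, 2168 and 2367 CPM in fed and 4687, 3972 and 3120 CPM in fasted Nts+/+ livers. In Nts-/- livers it stood at 1734, 1938 and 1698 CPM fed and 3695, 3647 and 3908 CPM fasted. All fasted livers were above all fed ones, and the fasted Nts-/- mice lay close together, with an SD of 139 CPM beside 785 CPM in fasted Nts+/+ mice. The log2 fold change was 0.88 (SE 0.16, adjusted p = 0.00283) and 1.07 (SE 0.16, adjusted p = 0.000727) under the 2 labels. The read assignment of Ahcy was shared in part, since its estimated counts were not whole in any of the 12 libraries.

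Gnmt (ENSMUSG00000002769, chr17:46725664-46729168), glycine N-methyltransferase, spends S-adenosylmethionine on glycine and showed no change past the test. Its CPM was 1343, 1404 and 1163 in fed and 1788, 1443 and 730 in fasted Nts+/+ livers. In Nts-/- livers it was 1110, 1627 and 1537 fed and 1470, 1548 and 1703 fasted. Fed and fasted mice overlapped under both labels, with fasted mouse 322 the lowest of all 12 livers. The log2 fold change was 0.018 (95% interval -0.53 to 0.57, adjusted p = 0.969) in Nts+/+ and 0.14 (95% interval -0.41 to 0.70, adjusted p = 0.747) in Nts-/- libraries.

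Bhmt (ENSMUSG00000074768, chr13:93616891-93637961) remethylates homocysteine with betaine and varied most between mice. In Nts+/+ livers it stood at 2310, 625 and 3196 CPM fed and at 15055, 7255 and 1994 CPM fasted. In Nts-/- livers it stood at 2919, 6062 and 1270 CPM fed and at 5597, 10554 and 12237 CPM fasted. Fed and fasted mice overlapped under both labels: fasted mouse 322 lay below 2 of the fed Nts+/+ mice, and fed mouse 303 lay above fasted mouse 284. The log2 fold change was 1.99 (SE 0.87, adjusted p = 0.151) in Nts+/+ and 1.47 (SE 0.86, adjusted p = 0.281) in Nts-/- libraries, and 1.73 averaged (adjusted p = 0.0580). The call depended on the tool, since DESeq2 gave adjusted p = 0.0473 in Nts+/+ libraries and 0.00618 averaged. With edgeR the averaged call was gained without fasted mouse 322 (adjusted p = 0.0279) or fed mouse 303 (adjusted p = 0.0445). Within groups the SD of Bhmt on the log2 scale was 1.16, larger than that of 98.4% of tested genes, whose median was 0.237. The pseudogene Bhmt-ps1 had at most 129 counts in a library, while Bhmt had 16986 to 518041, and all 12 Bhmt values were fractional.

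Together the 4 methionine cycle genes took up a sizeable part of the liver transcriptome. Their summed share of normalized counts was 0.814%, 0.690% and 1.05% in fed and 3.52%, 2.16% and 1.21% in fasted Nts+/+ livers. In Nts-/- livers it was 0.891%, 1.31% and 0.710% fed and 1.95%, 2.71% and 2.74% fasted. Only fed mouse 303 and fasted mouse 322 crossed over. The ratio of Mat1a to Gnmt CPM, taken after the values were seen and not tested, ran from 1.69 to 3.21 in fed and from 5.58 to 8.54 in fasted livers.

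**Figure D2:**
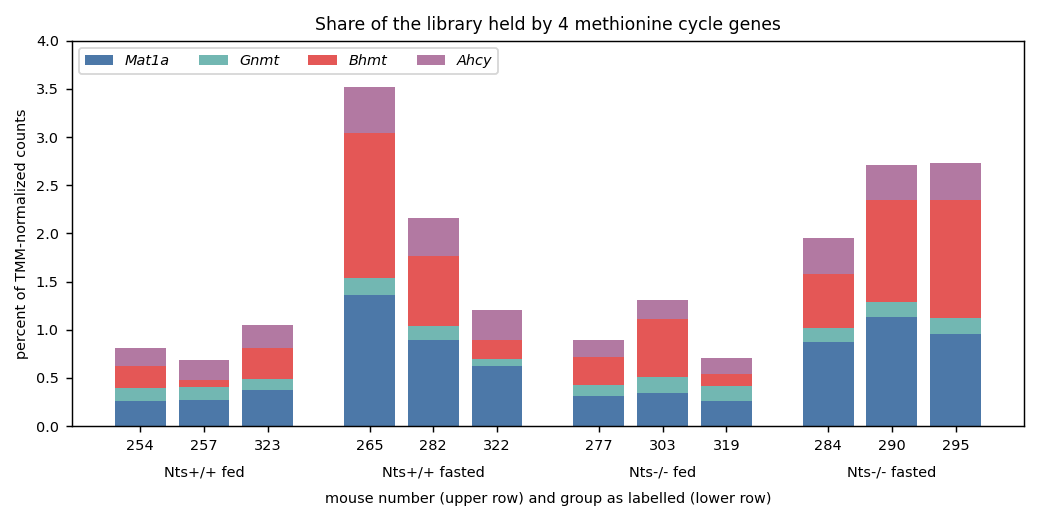
Percent of TMM-normalized counts (y axis, from 0) held by Mat1a, Gnmt, Bhmt and Ahcy in each mouse (x axis, number and group as labelled), stacked. The total is 0.690% to 1.31% in fed and 1.21% to 3.52% in fasted livers, and the Bhmt segment differs most between mice of one group.

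The 3 serine synthesis enzymes were scarce and moved in different directions. Phgdh, which takes the committed first step from 3-phosphoglycerate, had 2.52 to 18 counts per library and 0.133 to 0.779 CPM. Its log2 fold change was 0.062 (95% interval -1.23 to 1.36) in Nts+/+ and 0.51 (95% interval -0.75 to 1.76) in Nts-/- libraries, and no difference was detectable at this depth. The lowest of these libraries sat just under 3 counts, and the groups overlapped throughout.

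Psat1 (ENSMUSG00000024640, chr19:15904678-15947337), the aminotransferase of the middle step, was also near the limit of counting, at 10 to 45 counts per library, yet it was higher in each fasted mouse than in any fed one. It stood at 0.591, 0.441 and 0.532 CPM in fed and 0.996, 0.892 and 1.22 CPM in fasted Nts+/+ livers. In Nts-/- livers it stood at 0.529, 0.362 and 0.403 CPM fed and 0.825, 0.779 and 0.638 CPM fasted. The log2 fold change was 0.99 (SE 0.31, adjusted p = 0.0380) in Nts+/+, 0.76 (SE 0.31, adjusted p = 0.114) in Nts-/- libraries and 0.87 (SE 0.22, adjusted p = 0.00766) averaged. The call in Nts+/+ libraries was lost when any 1 of their 6 mice was left out (adjusted p from 0.0669 to 0.126) and with DESeq2 (adjusted p = 0.0747). The averaged call held without each of the 12 mice in turn, with adjusted p from 0.0108 to 0.0231.

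Psph (ENSMUSG00000029446, chr5:129765558-129787449), the phosphatase that releases serine, was lower in the fasted mice. It stood at 4.58, 6.44 and 5.67 CPM in fed and 3.94, 2.97 and 4.31 CPM in fasted Nts+/+ livers. In Nts-/- livers it stood at 4.76, 4.78 and 7.53 CPM fed and 4.21, 3.46 and 3.73 CPM fasted. No fasted liver reached the lowest fed one. The log2 fold change was -0.57 (SE 0.22, adjusted p = 0.0933) and -0.58 (SE 0.22, adjusted p = 0.0921) under the 2 labels and -0.57 (SE 0.16, adjusted p = 0.0130) averaged, a fold of 0.672. Psph overlaps Cct6a, a chaperonin subunit gene with 42149 counts over the 12 libraries beside 1588 for Psph. All 12 Psph values were fractional and the strand of the libraries is not given in the sources used here, so how far Cct6a reads enter the Psph value was not tested.

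The folate enzymes moved little. Shmt1, the cytosolic serine hydroxymethyltransferase, stood at 220, 233 and 229 CPM in fed and 216, 168 and 158 CPM in fasted Nts+/+ livers, and at 215, 244 and 190 CPM fed and 183, 173 and 214 CPM fasted in Nts-/- livers. Shmt2, its mitochondrial counterpart, ranged from 161 to 192 CPM in fed and from 133 to 182 CPM in fasted livers. Mthfd1 is the trifunctional cytosolic enzyme that interconverts one-carbon folates. It stood at 240, 249 and 223 CPM in fed and 240, 190 and 161 CPM in fasted Nts+/+ livers, and at 276, 318 and 254 CPM fed and 187, 225 and 259 CPM fasted in Nts-/- livers. Fed and fasted mice overlapped for Mthfd1 and Shmt2 under both labels and for Shmt1 in Nts-/- libraries. Fasted means were lower than fed means for all 3 genes under both labels, and none passed the test. Averaged log2 fold changes were -0.26 for Shmt1 (SE 0.10, adjusted p = 0.0695), -0.20 for Shmt2 (SE 0.093, adjusted p = 0.116) and -0.30 for Mthfd1 (SE 0.12, adjusted p = 0.0593). Mthfd1 and Shmt1 passed under upper-quartile scaling (adjusted p = 0.0316 and 0.0365), and Mthfd1 also with DESeq2 (0.0459). Both also passed when fasted mouse 265, fed mouse 319 or fasted mouse 295 was left out, with adjusted p of 0.0232, 0.0401 and 0.0497 for Shmt1 and 0.0203, 0.0467 and 0.0368 for Mthfd1. Shmt1 passed in Nts+/+ libraries alone without mouse 265 (adjusted p = 0.0499). The intervals bound the averaged fall at -0.48 for Shmt1, -0.40 for Shmt2 and -0.55 for Mthfd1. Shmt1 overlaps Smcr8, which had 8448 counts in all beside 69564 for Shmt1. The ratio of Shmt1 to Shmt2, per kilobase, was 0.899 to 1.14 in fed and 0.901 to 1.03 in fasted livers.

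**Figure D3:**
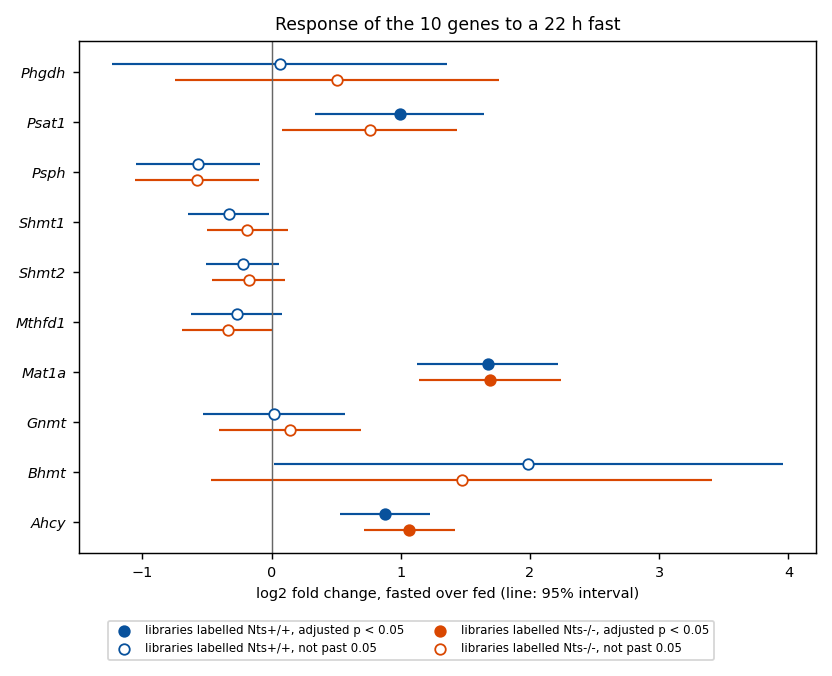
Log2 fold change of fasted over fed livers (x axis) for the 10 genes (y axis), with its 95% interval as a line, for the 2 genotype labels. Filled points passed an adjusted p of 0.05, and those are Mat1a and Ahcy under both labels and Psat1 in libraries labelled Nts+/+.

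Where the groups separated was counted as well. Of the 10 genes, 3 were higher in all 6 fasted than in all 6 fed mice and 1 was lower, beside 8.05% and 7.83% of all tested genes. In Nts+/+ libraries alone 5 of the 10 did not overlap, beside 36% of genes, and in Nts-/- libraries 4 of 10, beside 35.2%. Fasted Nts+/+ mouse 322 was the lowest of its group for 7 of the 10 genes, while mouse 265 was the highest for 8, and the methionine cycle genes were among both. Leaving out mouse 322 raised the log2 fold change of Mat1a in Nts+/+ libraries to 1.91, and leaving out mouse 265 lowered it to 1.34, with the call kept in both cases.

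The genotype comparisons asked whether the libraries labelled Nts-/- differed from those labelled Nts+/+ in fed mice, in fasted mice, or in the response to the fast. None of the 10 genes passed edgeR's test in any of the 3, none had an unadjusted p under 0.05, and DESeq2 called none. In the whole table edgeR called 0 of 13812 genes (0%) in each, with 876, 685 and 663 genes (6.34%, 4.96% and 4.8%) at an unadjusted p under 0.05, and DESeq2 called 8, 4 and 3 genes (0.0864%, 0.029% and 0.0217% of those it tested). The least of the unadjusted p-values among the 10 was 0.138 in fed livers, for Ahcy (log2 difference -0.25), and 0.120 in fasted livers, for Psat1 (log2 difference -0.49). Mthfd1 did not overlap between the labels in fed livers, at 254 to 318 CPM in Nts-/- and 223 to 249 CPM in Nts+/+ libraries, and 10.7% of all genes did not overlap either. Psat1 did not overlap in fasted livers, being lower in Nts-/- libraries, where 12.2% of all genes did not overlap. Since Nts counts went against the labels, the direction of these differences holds for the labels only.

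The difference between the 2 fasting responses had the narrowest interval for Shmt2 and the widest for Bhmt, the gene with the largest spread between mice. For Mat1a the difference in log2 fold change, Nts-/- minus Nts+/+, was 0.018 (95% interval -0.73 to 0.77). For Ahcy it was 0.19 (95% interval -0.30 to 0.68) and for Shmt2 0.044 (95% interval -0.35 to 0.44). For Bhmt it was -0.52 (95% interval -3.21 to 2.17) and for Phgdh 0.45 (95% interval -1.35 to 2.24).

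The genes whose profile over the 12 mice lay closest to those of Mat1a and Ahcy, the members that passed under both labels, were found by the root mean square difference of centred log2 CPM. For Mat1a these were Tmem120a, a membrane protein gene, at 0.21 and Hsd17b10, a mitochondrial dehydrogenase gene, at 0.21. For Ahcy these were Acsm3, a medium-chain acyl-CoA synthetase gene, at 0.097 and Mttp, which loads lipid onto lipoproteins, at 0.12. The fast raised Acsm3 by 0.99 and 1.01 and Mttp by 0.92 and 1.02 on the log2 scale under the 2 labels. A distance of this kind is a description over 12 mice that share the fed and fasted split.

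The wider pathway was divided into 4 lists. Among other folate enzymes and carriers, 20 of 21 genes were tested, and 3 were higher and 5 lower in Nts+/+, and 3 higher and 1 lower in Nts-/- libraries, so that 8 and 4 of 20 passed beside 18.1% and 16.8% of all tested genes. Carriers had the smallest p-values: Slc25a32, the mitochondrial folate carrier, had a log2 fold change of 1.08 and 1.00 under the 2 labels (adjusted p = 0.000389 and 0.000463), and Slc19a1, the reduced folate carrier, 1.25 and 1.02 (adjusted p = 0.000599 and 0.00199). Slc46a1, the proton-coupled folate transporter, fell by 0.73 and 0.64 (adjusted p = 0.00448 and 0.00953). Folr2, a folate receptor gene that macrophages carry, fell by 1.40 in Nts+/+ libraries (adjusted p = 0.000800) and had a value of -0.64 in Nts-/- libraries (adjusted p = 0.0522). The summed level of 5 Kupffer cell markers was 398 to 467 CPM in fed and 195 to 339 CPM in fasted Nts+/+ livers, and 244 to 340 and 254 to 388 CPM in Nts-/- livers, and its part in the Folr2 result was not tested. Among the mitochondrial partners of Mthfd1, Mthfd1l was higher in Nts+/+ libraries (log2 fold change 1.61, adjusted p = 0.0366) and at 0.31 in Nts-/- libraries (adjusted p = 0.699). The difference between the labels did not pass for any listed gene. Mthfd2 stood at -0.52 and 0.074 and Mthfd2l at 0.10 and -0.38, none of them past the test.

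Among other enzymes of methionine, choline and betaine metabolism, 20 of 20 genes were tested, and 6 were higher and 2 lower in Nts+/+, and 3 higher and none lower in Nts-/- libraries, or 8 and 3 of 20 beside 18.1% and 16.8% of all tested genes. Mat2a, the widely expressed form of methionine adenosyltransferase, rose by 0.69 and 0.88 on the log2 scale (adjusted p = 0.00788 and 0.00178), less than Mat1a. The ratio of Mat1a to Mat2a per kilobase was 38.8 to 63.8 in fed and 68.1 to 132 in fasted livers, so the liver form was far ahead in both states. Nnmt, which methylates nicotinamide with S-adenosylmethionine, rose by 1.31 and 1.37 (adjusted p = 0.00334 and 0.00252). Mmadhc, needed for cobalamin use, rose by 0.55 and 0.77 (adjusted p = 0.0233 and 0.00401), and Pipox, which oxidises sarcosine, fell by 0.59 in Nts+/+ libraries (adjusted p = 0.0295) with -0.39 in Nts-/- libraries (adjusted p = 0.137). The paralogs Bhmt2 (0.038 and 0.35), Ahcyl1 (0.31 and 0.084) and Ahcyl2 (-0.011 and -0.39) and the regulatory subunit gene Mat2b (0.19 and 0.080) did not pass under either label.

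Of the transsulfuration and cysteine list, 11 of 12 genes were tested, and none was higher and 2 were lower in Nts+/+, and 1 was higher and 3 lower in Nts-/- libraries, or 2 and 4 of 11 beside the same 18.1% and 16.8%. Ethe1, which oxidises persulfide in mitochondria, fell by 1.23 and 1.35 (adjusted p = 0.00725 and 0.00458), and Tst, a sulfurtransferase, by 0.48 and 0.46 (adjusted p = 0.0141 and 0.0185). Csad, which takes cysteine sulfinate towards taurine, fell by 2.10 in Nts-/- libraries (adjusted p = 0.0311) and had a value of -1.07 in Nts+/+ libraries (adjusted p = 0.210). Of 20 genes listed under serine and glycine use, 18 were tested. In Nts+/+ libraries 2 were higher and 2 lower, and in Nts-/- libraries 1 was higher and 1 lower. That was 4 and 2 of 18, beside 18.1% and 16.8%. The higher genes in Nts+/+ libraries were Gldc and Gnpat (log2 fold change 0.345, adjusted p = 0.0426). Gnpat encodes an ether lipid enzyme that uses neither serine nor glycine, yet it is in the counts and median of this list. Gcat, which splits the threonine product into glycine and acetyl-CoA, fell by 1.30 and 1.36 (adjusted p = 0.000145 and 8.00e-05). Gldc, of the glycine cleavage system, rose by 0.68 in Nts+/+ libraries (adjusted p = 0.0290) and Grhpr, of glyoxylate handling, by 0.73 in Nts-/- libraries (adjusted p = 0.0104), with 0.41 and 0.30 under the other label. Glyat, which joins glycine to acyl-CoA, fell by 0.53 in Nts+/+ libraries (adjusted p = 0.0208) and stood at -0.21 in Nts-/- libraries. The medians over the 4 lists in the averaged fast were -0.15, 0.20, -0.22 and 0.10, beside -0.0071 over all tested genes.

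**Figure D4:**
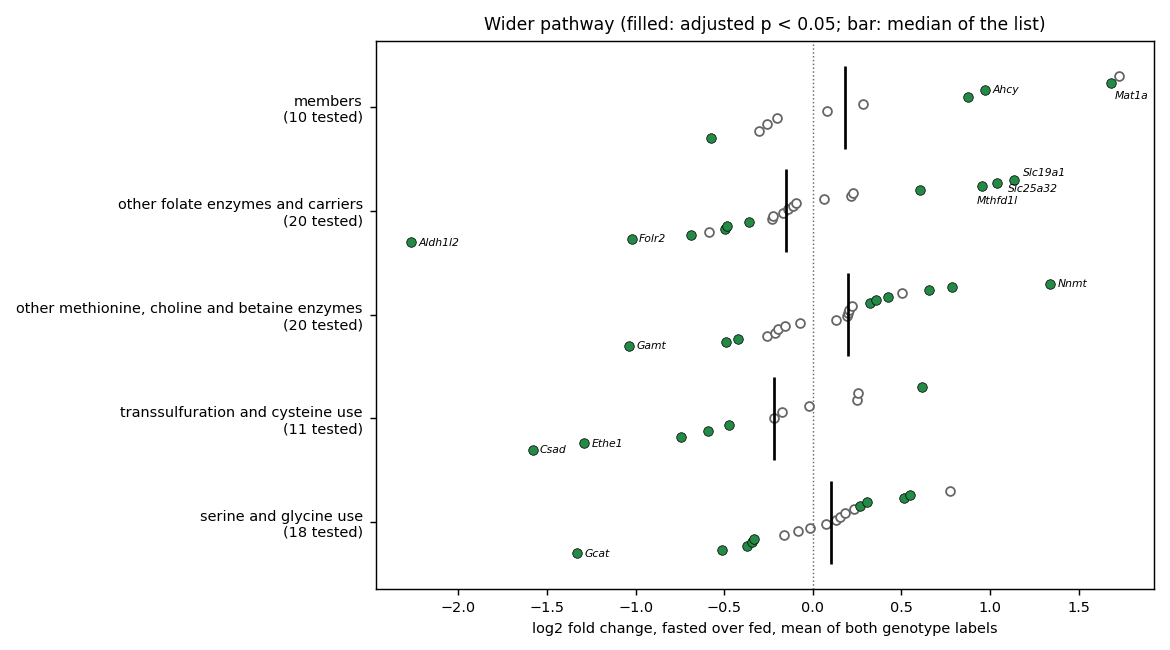
Log2 fold change of fasted over fed livers, averaged over both genotype labels (x axis), for the 10 genes and the 4 lists of the wider pathway (y axis, genes spread within a list by value). Filled points passed an adjusted p of 0.05, bars are list medians, and named points are called genes with an absolute value of about 1 or more, among them Mat1a, Slc19a1, Nnmt and Gcat.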

How the data were processed

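Total RNA of 12 mouse livers was sequenced, with 3 mice in each of 4 groups taken from the sample labels. Per the submitters' processing notes, the reads were trimmed with Trimmomatic and quantified with RSEM against GRCm38 (versions not given in the sources used here), and the authors deposited expected counts per gene, which are estimates and need not be whole. The table held 0 columns of other samples. The expected counts were rounded to whole numbers and genes were kept by edgeR's filterByExpr (13812 of 48795). All 12 libraries entered 1 fit with TMM normalization and edgeR 4.0.16's quasi-likelihood test (R 4.3.3, limma 3.58.1), with Benjamini-Hochberg adjustment over all tested genes and a threshold of 0.05. Contrasts were fasted against fed under each genotype label, their mean, genotype within each state, and the interaction. DESeq2 1.42.0, other scalings, filters, fit groups and thresholds, and leaving out each mouse were alternatives. CPM are TMM-normalized. The script was tested on simulated data.

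All 10 members were named, with their paralogs and partners, and, of the wider lists, up to 3 other genes with the smallest p past the threshold in each fasting contrast. The members and lists were chosen with earlier results of these data known. Shared or overlapping genes split reads by estimate. The mice are separate animals, and each p-value sets a difference between groups against a spread estimated over all 12 libraries. With 3 mice a group the precision is limited. Counts near 3 per library carry counting error in addition to the spread between mice. Promoters are RefSeq windows of GRCm38.p6.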

Additional observations from a re-analysis of the deposited data

How the results depend on the processing

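The calls of Mat1a held under every alternative that was run, and those of Ahcy under all but a size limit in Nts+/+ libraries and in the averaged fast. With a limit of 1 on the size of the log2 fold change, 1 of the 10 genes was called in Nts+/+ libraries and 1 in the averaged fast (Mat1a in both), and at an adjusted p under 0.10 the averaged fast had 7. Leaving out 1 mouse gave 2 to 3 called genes in Nts+/+ libraries, 2 to 2 in Nts-/- libraries, 4 to 6 averaged, and 0 to 0 for the labels or the difference of responses. Psat1 in Nts+/+ libraries lost its call with DESeq2, without a count filter (adjusted p = 0.0922) or with only the compared groups (0.0671), and the cause was not tested. Gnmt in Nts+/+ libraries turned to -0.024 under upper-quartile scaling. The difference of responses of Psph turned to 0.0023 with RLE scaling, 3.8e-05 with upper-quartile scaling, 0.0032 with DESeq2 and 0.0066 with at least 10 counts in every mouse. All of these lie near 0. Values that changed sign when 1 mouse was left out are given as log2 ranges, none of them past the threshold in any such fit. For the fast in Nts+/+ these were Phgdh -0.28 to 0.43, Gnmt -0.25 to 0.31. For the fast in Nts-/- these were Phgdh -0.074 to 1.02, Gnmt -0.0054 to 0.26. For the averaged fast these were Phgdh -0.0034 to 0.54, Gnmt -0.053 to 0.23. For the labels in fed livers these were Phgdh -0.61 to 0.27, Psph -0.22 to 0.15, Shmt1 -0.17 to 0.014, Shmt2 -0.0033 to 0.11, Mat1a -0.078 to 0.20. For the labels in fasted livers these were Phgdh -0.23 to 0.67, Psph -0.11 to 0.14, Shmt1 -0.021 to 0.22, Shmt2 -0.0043 to 0.18, Mat1a -0.20 to 0.37, Gnmt -0.038 to 0.53, Bhmt -0.24 to 1.03, Ahcy -0.21 to 0.074. For the difference of responses these were Phgdh -0.14 to 0.96, Psph -0.14 to 0.24, Shmt2 -0.053 to 0.13, Mthfd1 -0.20 to 0.089, Mat1a -0.22 to 0.35, Gnmt -0.17 to 0.40, Bhmt -0.997 to 0.28. The median over the 10 genes ranged from -0.20 to 0.25 in Nts+/+, from 0.042 to 0.46 in Nts-/- libraries and from -0.064 to 0.29 for the difference of responses. No paired analysis was possible because the mouse numbers are unique and pair no samples. The limits are 3 mice a group, counts of 2.52 to 45 for Phgdh and Psat1, and Nts counts in the reverse direction of the genotype labels.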

Other observations

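Outside the genes named by rule, 2 were picked after their values were seen. Aldh1l2, the mitochondrial formyl-tetrahydrofolate dehydrogenase, was near the counting floor, at 0.517 to 0.846 CPM in fed and 0 to 0.190 CPM in fasted libraries labelled Nts+/+, and at 0.181 to 0.635 and 0.0866 to 0.183 CPM in libraries labelled Nts-/-. It passed edgeR's quasi-likelihood test in Nts+/+ libraries and averaged (adjusted p = 0.0118 and 0.00285) and not in Nts-/- libraries (0.111), and no fold is given at these counts. Gamt, which methylates guanidinoacetate to creatine with S-adenosylmethionine, had a log2 fold change of -1.04 averaged (adjusted p = 0.00985 by the same test), with -0.92 and -1.15 under the 2 labels (adjusted p = 0.102 and 0.0509).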
